A study of Mus musculus with 4 samples.

Results

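Dividing astrocyte progenitors are the cycling cells of the astroglial lineage, and 835 of the 17623 cells kept from 4 single-cell RNA-seq libraries of the neonatal mouse telencephalon belonged to them. They were chosen by their own transcripts. A cell, read as a barcode with 2000 to 40000 unique molecular identifiers (UMIs, each 1 captured transcript), at least 1000 genes and at most 10% mitochondrial UMIs, had to hold at least 3 UMIs of Mki67 and Top2a together and at least 3 UMIs of Aldh1l1, Aqp4 and Gja1 together. It also had to hold no UMI of Dlx1, Dlx2, Pdgfra, Neurod2 or Neurod6. Mki67 encodes the proliferation antigen Ki67 and Top2a the topoisomerase that untangles replicated DNA, whereas Aldh1l1, Aqp4 and Gja1 encode a folate enzyme, a water channel and a gap junction protein of astrocytes. The excluded genes mark inhibitory neurons, oligodendrocyte precursor cells (OPCs) and excitatory neurons. The members numbered 163 in control 1, 297 in control 2, 153 in mutant 1 and 222 in mutant 2.

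The study asked how loss of one copy of Chd8, which encodes a chromodomain helicase that remodels chromatin, affects cells born from midfetal neural stem cells. All mice were C57BL/6 and carried NestinCreERT2, a tamoxifen-inducible Cre recombinase expressed in neural stem cells, and a tdTomato reporter at Rosa26 that Cre switches on. Control mice were NestinCreERT2/tdTomato/Chd8+/+ and mutant mice NestinCreERT2/tdTomato/Chd8+/F, in which Cre removes floxed exons of one Chd8 allele. Tamoxifen was given at embryonic day 14.5 to the pregnant females of both groups, and tdTomato-positive cells were sorted at postnatal day 5. The reporter marks recombination at its own locus, so a sorted cell need not have lost the floxed exons of Chd8. Each library pooled the cells of 3 mice and was loaded with 5000 of them, so the 2 libraries of each genotype are the replicates and p-values measure the spread between pooled libraries.

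Astrocytes arise from radial glia, the stem cells of the embryonic forebrain, which turn from making neurons to making glia around birth. Newborn astrocyte progenitors go on dividing locally in the first postnatal weeks and then mature, gaining glutamate uptake, potassium buffering and gap junction coupling. A dividing cell passes from S phase, in which DNA and histones are made, into G2 and mitosis (G2/M), and each step has its own set of transcripts.

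The replicate numbers coincided with a technical difference. Per the file headers, replicate 1 of both genotypes was processed with Cell Ranger 7.0.0 and replicate 2 with Cell Ranger 5.0.1. Library totals were 79328841 UMIs in control 1, 46274374 in control 2, 78211984 in mutant 1 and 50616343 in mutant 2, and the filters kept 79.1%, 48.7%, 79.3% and 45.1% of the barcodes. Xist, the noncoding RNA of the inactive X chromosome, was at 0 counts per 1000000 UMIs (CPM) in the members of both replicate 1 libraries, at 1444 CPM in control 2 and at 1574 CPM in mutant 2, although the study's reporting summary names male mice for scRNA-seq. Cell Ranger counts intronic reads by default from version 7.0.0 on, and whether they were counted here is not given in the sources used, so a CPM may not mean the same in replicates 1 and 2, above all for long genes. Members of different libraries shared 0 barcodes.

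The markers that the rule did not use separated members only in part. Fabp7, a fatty acid binding protein of radial glia, was found in 99.7% to 100% of members of each library, and stood at 13612 CPM in control 1, 13618 in control 2, 13828 in mutant 1 and 12193 in mutant 2. Excitatory neurons of the same libraries (402 cells with at least 3 UMIs of Neurod2 and Neurod6 and none of the other rule genes), which should lack it, held a Fabp7 UMI in 58.3% to 97.1% of cells at a median depth of 11654 UMIs, against 19825 UMIs in members, so its presence in a single cell separates little. Hopx, a homeodomain protein of outer radial glia and astrocytes, was found in 38.4% to 50.9% of members and in 7.39% to 14.3% of excitatory neurons. Its level was 204 CPM in control 1, 100.2 in control 2, 198 in mutant 1 and 171 in mutant 2.

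Mki67 (chr7:135689784-135716361, minus strand, mm10) and Top2a (chr11:98992943-99024189, minus strand) together gave a median of 16 UMIs a member, with a range of 3 to 167. At the cut, 84 members held 3 such UMIs and 165 otherwise eligible cells held 2. The 3 astrocyte genes together gave a median of 18 UMIs, with 73 members at 3 and 88 cells just outside at 2. The edge of the class was gradual: cells held 46.4 UMIs of a list of G2/M genes on average at 2 UMIs of Mki67 and Top2a, 59.7 at 3 and 148 at 6. A member held a median of 19825 UMIs and 5340 genes, against 13388 UMIs in resting astroglia, and 121 members held more than 30000 UMIs.

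The dividing state was read against resting astroglia, the 3721 cells that met the same rule with 0 UMIs of Mki67 and Top2a. Because both classes were cut from the measured UMIs, the levels that follow are a description. A gene was counted as higher when its CPM was higher in the members of all 4 libraries, and of 8178 genes with at least 20 CPM in either class 37.6% were higher and 33.8% lower. All 43 S phase genes were higher, with a median log2 ratio of 2.75, and 50 of 51 G2/M genes were higher, with a median of 5.37. The exception was Tubb4b, a beta tubulin, whose log2 ratio ran from -0.18 to 0.40.

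Promoters of 3 G2/M genes are shown because genes of this phase were the ones set furthest apart from resting cells and share letters close to their starts. In RefSeq promoters of GRCm38.p6, from 250 bases before to 50 bases after each gene's start, TTTGAA, the core of the cell cycle homology region bound by the DREAM complex, stood on either strand in 20.2% of 27025 genes and in 32 of 46 matched G2/M genes. CCAAT, the site of the factor NF-Y, stood in 41.1% of all genes and in 35 of the 46. The 3 genes shown were picked by a high lowest log2 ratio over resting cells from genes with TTTGAA and 1 RefSeq promoter, genes of the rule aside. Not every G2/M gene with TTTGAA was eligible, so the 3 need not have the highest ratios of all such genes. Hmmr encodes a spindle-associated hyaluronan receptor (chr11:40733388-40733587, minus strand), Ttk the spindle checkpoint kinase (chr9:83834539-83834738, plus strand) and Cdca8 a subunit of the chromosomal passenger complex (chr4:124936868-124937067, minus strand). Each sequence runs from 150 bases before to 50 bases after the start, and capitals mark TTTGAA and CCAAT or their reverse complements, which overlap once in Cdca8.
Hmmr: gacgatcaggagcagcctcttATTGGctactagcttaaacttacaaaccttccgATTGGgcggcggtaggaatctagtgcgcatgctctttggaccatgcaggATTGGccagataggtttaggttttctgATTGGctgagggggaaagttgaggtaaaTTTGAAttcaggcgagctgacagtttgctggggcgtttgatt
Ttk: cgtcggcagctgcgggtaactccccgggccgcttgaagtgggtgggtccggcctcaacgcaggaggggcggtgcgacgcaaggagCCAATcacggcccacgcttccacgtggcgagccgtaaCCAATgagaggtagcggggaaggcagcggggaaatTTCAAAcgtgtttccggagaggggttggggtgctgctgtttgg
Cdca8: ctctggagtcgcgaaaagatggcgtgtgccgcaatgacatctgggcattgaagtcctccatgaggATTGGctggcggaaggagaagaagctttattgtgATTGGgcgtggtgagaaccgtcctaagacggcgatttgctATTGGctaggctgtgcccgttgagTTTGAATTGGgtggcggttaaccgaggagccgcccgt
A match of letters is a description and does not show that a factor binds there.

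Hmmr stood at 121 CPM in control 1, 197 in control 2, 136 in mutant 1 and 146 in mutant 2, and at or below 0.961 CPM in resting cells, a log2 ratio of at least 7.30 in every library. Ccnb1, the cyclin that drives entry into mitosis, stood at 210 CPM, 177, 215 and 245 in the same order, against 1.94 to 3.81 CPM in resting cells. Cdk1, its kinase partner, stood at 417 CPM, 262, 419 and 292 against 4.63 to 10.5 CPM. For each of these genes the ranges of dividing and resting libraries lay far apart. Esco2, Pimreg, Ccna2, Kif15, Hist1h3c, Aurkb, Cenpe, Ect2, Aspm, Pclaf and Cdca8 completed the genes with the highest ratios, and nearly all of them act in replication, chromosome cohesion or division.

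S phase genes had smaller ratios over resting cells than G2/M genes. Pcna, the sliding clamp of DNA polymerase, stood at 335 CPM in control 1, 295 in control 2, 307 in mutant 1 and 324 in mutant 2, against 53.0 to 65.1 CPM in resting cells. Rrm2, a subunit of the reductase that makes deoxynucleotides, stood at 192 CPM, 204, 213 and 277 against 6.11 to 10.8 CPM. G1 regulators differed less between the classes. Of 15 measured, 12 were higher, with a median log2 ratio of 1.05. Cdk4 had 325 CPM, 258, 250 and 358 against 119.7 to 184 CPM, whereas Ccnd2, its cyclin partner, had 736 CPM, 1366, 821 and 1513 and a log2 ratio of only 0.03 to 0.23. Among the inhibitors Cdkn2c was higher at 161 CPM, 106, 175 and 122 against 21.99 to 31.9 CPM, and Cdkn1a, the p53 target p21, spanned both directions from -1.29 to 0.49.

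Genes of mature astrocytes were lower in dividing members. Of 27 measured, 26 were lower in all 4 libraries and none was higher, with a median log2 ratio of -0.72, and Chrdl1, a BMP antagonist, was the exception. Gfap, the intermediate filament of astrocytes, stood at 61.9 CPM in control 1, 74.1 in control 2, 66.7 in mutant 1 and 147 in mutant 2, against 323 to 530.3 CPM in resting cells. Aldoc, a glycolytic aldolase, stood at 311 CPM, 305, 318 and 423 against 705 to 971 CPM. Neither gene's ranges overlapped between the classes. Apoe, the lipid carrier, had 5031 CPM, 6315, 6082 and 7202 against 11165 to 14166 CPM, and the calcium-binding S100b had 8.51 CPM, 17.7, 28.2 and 25.6 against 52.7 to 80.8 CPM. Slc7a10, a transporter of serine and other small amino acids, was below its resting level in every library.

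Progenitor genes did not move as a block. Of 19 genes of radial glia and progenitors, 4 were higher and 11 lower than in resting cells, with a median log2 ratio of -0.21. Egfr, a growth factor receptor of activated progenitors, had log2 ratios of 0.21 to 0.75, and Nes, an intermediate filament of neural stem cells, of 0.46 to 0.76, both higher in all 4 libraries. Fabp7 itself was at 14554 to 17268 CPM in resting cells, above its level in the members of the same library. Hopx was likewise higher in resting cells, at 174 to 348 CPM. Sox2, a stem cell transcription factor, stood at 480.3 CPM, 452, 463 and 603 in members and at 481 CPM, 504, 467 and 610.1 in resting cells.

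Of the 13 receptors of growth factors and Notch with enough counts, 11 were lower in members and only Egfr was higher, with a median log2 ratio of -0.35. Fgfr1 and Fgfr2, receptors for fibroblast growth factors, had log2 ratios of -0.63 to -0.41 and -0.46 to -0.20. The transcription factors of gliogenesis were divided, with 4 of 13 higher and 4 lower and a median of -0.06. Nfib and Nfix, nuclear factor I proteins that promote astrocyte genes, were higher by 0.29 to 0.54 and 0.16 to 0.52 on the log2 scale. Sox9, needed for the switch to gliogenesis, had log2 ratios of -0.83 to -0.73 and Id4, an inhibitor of bHLH factors, -1.05 to -0.72. Across the libraries the log2 ratio of summed mature to summed progenitor transcripts was -1.04, -0.71, -0.87 and -0.43 in dividing cells and -0.49, -0.23, -0.44 and -0.02 in resting cells, lower in the dividing cells of every library. These list values include the members with ciliated or excitatory transcripts described next.

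The 835 members were not all of one kind. Of them, 89 (10.7%) held at least 2 UMIs of Foxj1, the transcription factor that switches on motile cilia in ependymal cells, and 22 (2.63%) held at least 2 UMIs of Eomes, a factor of intermediate progenitors in the excitatory lineage. None of the 835 held both, which allows a share of up to 0.441% by the exact Clopper-Pearson interval, and these cuts were set after values were seen. The cells with Foxj1 made up 12.3% of members in control 1, 10.8% in control 2, 10.5% in mutant 1 and 9.46% in mutant 2. Most members carried neither gene at this level, and 520 (62.3%) held at least 2 UMIs of Egfr and 163 (19.5%) at least 2 UMIs of Gfap.

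Foxj1-positive members carried the transcripts of ciliated cells. Rsph1, a radial spoke protein of the axoneme, stood at 1084 CPM in them and at 3.83 CPM in the 746 other members. Hydin, a central pair protein, stood at 303 against 0.713 CPM and Ccdc153 at 332 against 0.454 CPM. These genes were therefore close to absent outside the Foxj1-positive cells. Over all libraries together the same cells had 3441 CPM of Fabp7 against 14482 CPM and 67.0 CPM of Egfr against 276 CPM. Their progenitor list summed to 13565 CPM against 31477 CPM. By library their Fabp7 stood at 1516 CPM in control 1, 5010 in control 2, 614 in mutant 1 and 5443 in mutant 2. Egfr stood in them at 6.49 CPM, 135, 2.88 and 84.0 in the same order. Both genes were thus much lower in the Foxj1-positive members of the replicate 1 libraries. A Foxj1 UMI was found in 17.6% to 20.9% of members and in 19.6% to 27.7% of resting astroglia of each library, against 0% to 1.92% of excitatory neurons, a class that should lack it.

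Their cell cycle transcripts had another balance. The S phase list summed to 2062 CPM against 3880 CPM in other members, while the G2/M list summed to 9214 CPM against 12078 CPM. Mki67 and Top2a came apart. No Mki67 UMI was found in 50 of the 89 Foxj1-positive members (56.2%), compared with 42 of 746 others (5.63%), whereas no Top2a UMI was found in 1 of 89 and in 70 of 746 (9.38%). By library, Mki67 was absent from 14 of 20 such cells in control 1, 12 of 32 in control 2, 14 of 16 in mutant 1 and 10 of 21 in mutant 2. Both replicate 1 libraries thus had the larger share without Mki67. The median depth was similar, at 21350 UMIs against 19637 UMIs. A member without Mki67 had to hold at least 3 UMIs of Top2a to be chosen, so the 2 counts are tied by the rule and are a description. With ciliary transcripts high and Fabp7 low, the name of dividing astrocyte progenitors did not describe these cells well.

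**Figure D1:**
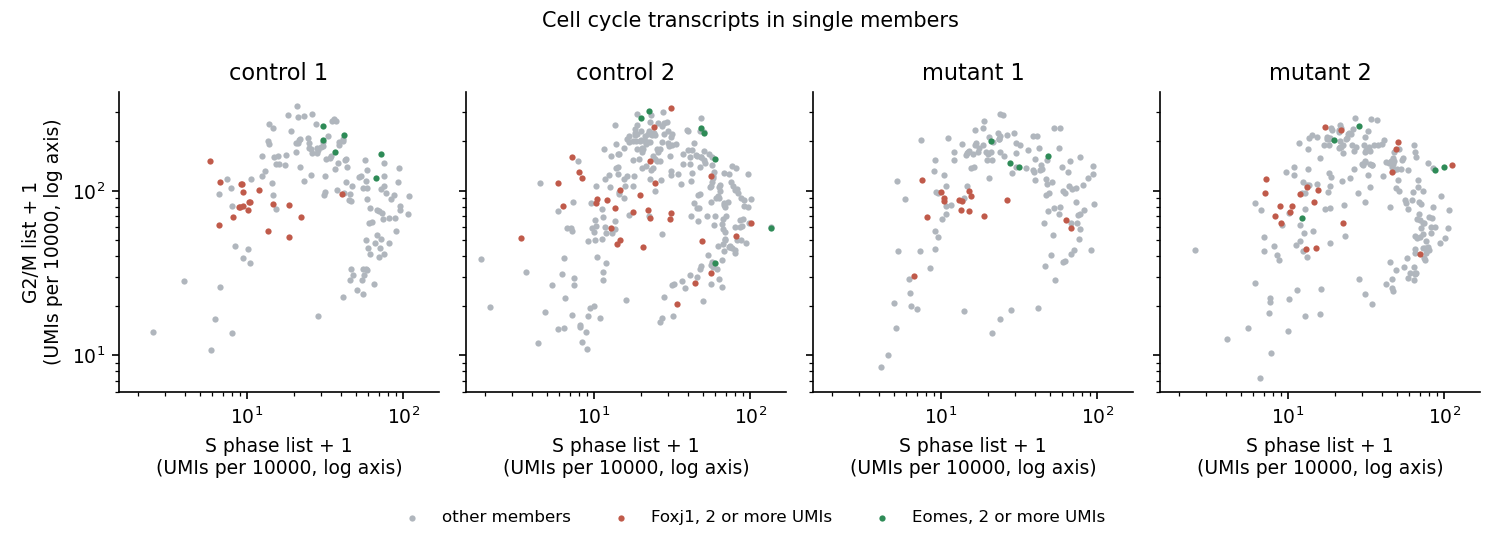
Each point is 1 of the 835 members, with the S phase list on the x axis and the G2/M list on the y axis, both in UMIs per 10000 of the cell plus 1 on log axes, 1 panel a library. The 89 members with at least 2 UMIs of Foxj1 (red) lie mostly toward low S phase values, where their sum is 2062 CPM against 3880 CPM in the rest, and the 22 members with at least 2 UMIs of Eomes (green) lie mostly toward high G2/M values.

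The 22 Eomes-positive members numbered 6 in control 1, 7 in control 2, 4 in mutant 1 and 5 in mutant 2. Over all libraries together their G2/M list summed to 17285 CPM, their Fabp7 level was 1603 CPM and their mature astrocyte list summed to 3279 CPM. These pooled values lay below both the Foxj1-positive members and the rest on the last 2 measures. In mutant 1 the order was the reverse for Fabp7, at 1009 CPM in Eomes-positive and 614 CPM in Foxj1-positive members. Transcripts of other cell types were counted in all members. At least 3 UMIs of some list of another type were found in 232 members (27.8%), in 54 of control 1, 73 of control 2, 47 of mutant 1 and 58 of mutant 2. The ependymal list reached this in 83 members, the mural list in 51, the neuron list in 49, the OPC and oligodendrocyte list in 37, the fibroblast list in 27, the excitatory neuron list in 23, the choroid plexus list in 18, the endothelial list in 17, the inhibitory neuron list in 13 and the microglia list in 3. Scrublet, which looks for doublets, marked 6 members, and marked 0.202% to 2.79% of the kept cells of each library. The part of doublets and of free RNA in these mixtures was not tested.

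With cells of at least 2 UMIs of Foxj1 or Eomes left out of both classes, 724 members and 3213 resting cells remained, and the median of each list named next kept its sign. All 43 S phase and all 51 G2/M genes were then higher, with median log2 ratios of 2.82 and 5.69, and 26 of 27 mature astrocyte genes were lower, with a median of -0.76. Of the 8178 genes compared, 35.8% were then higher and 33.6% lower. Of 15 G1 regulators 11 were higher and 1 lower, and of 13 receptors 1 was higher and 11 lower. Of 19 progenitor genes 5 were higher and 9 lower. Of 13 gliogenic factors 4 were higher and 5 lower, which is near the shares of all genes. Gfap stood at 68.5 CPM in control 1, 76.5 in control 2, 71.1 in mutant 1 and 133.6 in mutant 2, against 350.4 to 590.3 CPM in the resting cells.

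The members were also set beside other dividing cells of the same libraries. All 3 classes were cut by the same clause on Mki67 and Top2a and kept apart by Pdgfra, Dlx1 and Dlx2. Closeness in cycle genes and distance in lineage genes were thus built in and the values are a description. The comparison classes were 654 dividing OPCs, with at least 3 UMIs of Pdgfra, and 679 dividing inhibitory progenitors, with at least 3 UMIs of Dlx1 and Dlx2. Neither class had a clause on Aldh1l1, Aqp4 or Gja1. Against dividing OPCs, 29.3% of 8499 genes were higher in all 4 libraries and 37.5% lower. Of 43 S phase genes 8 were higher and 5 lower, and of 51 G2/M genes 2 were higher and 28 lower with a median log2 ratio of -0.46. The progenitor list was higher in 18 of 19 genes and the mature astrocyte list in 25 of 27. Tnc, an extracellular matrix protein of radial glia, stood at 1105 CPM in control 1, 752 in control 2, 1066 in mutant 1 and 618 in mutant 2, against 42.7 to 72.2 CPM in dividing OPCs. Sox10, the transcription factor of the oligodendrocyte lineage, stood at 0.797 CPM, 1.93, 1.52 and 3.08 against 214 to 259 CPM. Ranked by the smallest ratio over the libraries, among genes of at least 100 CPM, the ciliary genes Rsph1, Foxj1 and Dynlrb2 came highest. They rested on the Foxj1-positive members. With cells of 2 UMIs of Foxj1 or Eomes left out, Rsph1 stood at 1.59 CPM, 5.90, 2.44 and 4.52 in members against 0 to 4.66 CPM in dividing OPCs, whereas Tnc stood at 1307 CPM, 832, 1211 and 671 against 34.5 to 72.7 CPM. Of the 8499 genes 26.9% were then higher and 38.4% lower. Of 43 S phase genes 11 were higher and 2 lower, and 27 of 51 G2/M genes were lower. The progenitor and mature lists were higher in 18 of 19 and 26 of 27 genes.

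Against dividing inhibitory progenitors, 34.4% of 8173 genes were higher in all 4 libraries and 35.5% lower. Here 38 of 44 S phase genes and 28 of 51 G2/M genes were lower in astrocyte progenitors, with median log2 ratios of -0.66 and -0.36, and 12 of 17 G1 regulators were lower, with a median of -0.85. All 26 mature astrocyte genes and 17 of 19 progenitor genes were higher. Htra1, a serine protease of astrocytes, stood at 189 CPM in control 1, 270 in control 2, 261 in mutant 1 and 263 in mutant 2, against 11.9 to 16.2 CPM. Hes1, a Notch effector, stood at 114 CPM, 90.0, 168 and 88.8 against 5.90 to 10.6 CPM. Gad2, which makes the transmitter GABA, stood at 7.18 CPM, 4.21, 16.1 and 1.98 against 208 to 423 CPM. With the same cells left out, 34.8% of the 8173 genes were higher and 37.1% lower. Then 36 of 44 S phase genes, 30 of 51 G2/M genes and 13 of 17 G1 regulators were lower. Higher were 26 of 26 mature astrocyte genes and 17 of 19 progenitor genes.

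The share of dividing astrocyte progenitors did not differ between genotypes beyond the spread of the libraries. They made up 2.85% of kept cells in control 1 (95% Clopper-Pearson interval 2.44% to 3.32%), 9.99% in control 2 (8.93% to 11.1%), 2.70% in mutant 1 (2.30% to 3.16%) and 6.77% in mutant 2 (5.93% to 7.68%). The replicate 2 libraries were high and the replicate 1 libraries low in both genotypes, and the genotypes overlapped. The mean was 6.42% ± 5.05 (SD, n = 2) in controls and 4.73% ± 2.87 (SD, n = 2) in mutants, a difference of -1.69 percentage points (exact two-sided permutation p = 0.667, where 4 libraries can give no p below 0.333). Within replicate numbers the mutant differed from the control by -0.151 and -3.22 percentage points.

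Among astroglial cells, the 5292 cells that met the rule without its Mki67 and Top2a clause, members made up 10.7% in control 1 (9.19% to 12.4%), 24.5% in control 2 (22.1% to 27.0%), 10.6% in mutant 1 (9.05% to 12.3%) and 19.98% in mutant 2 (17.7% to 22.5%). The means were 17.6% ± 9.75 (SD, n = 2) and 15.3% ± 6.64 (SD, n = 2), a difference of -2.30 percentage points (exact two-sided permutation p = 0.667). Leaving out control 2 turned both differences, to 1.88 and 4.59 percentage points, and so did leaving out mutant 1, to 0.344 and 2.39. Intervals on shares cover counting error only. The median depth of members was 22699 UMIs in control 1, 18009 in control 2, 21264 in mutant 1 and 19246.5 in mutant 2, and its part in the shares was not tested beyond thinning. With each cell thinned to 5000 UMIs the differences were -1.01 and -1.86 percentage points. Without the Foxj1-positive members they were -1.44 (exact permutation p = 0.667) and -1.96 (exact permutation p = 1), with shares of kept cells of 2.50%, 8.91%, 2.42% and 6.13%.

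**Figure D2:**
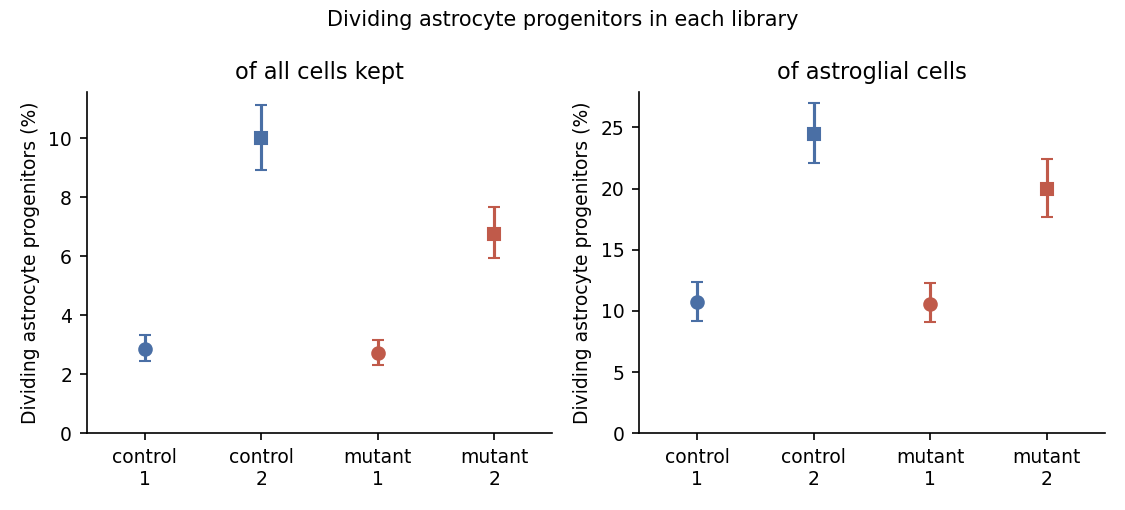
Dividing astrocyte progenitors in percent of all kept cells (left) and of astroglial cells (right), 1 point a library with 95% Clopper-Pearson intervals, controls in blue, mutants in red, circles for replicate 1 and squares for replicate 2. The replicate 2 libraries, at 9.99% and 6.77% of kept cells, lie above the replicate 1 libraries, at 2.85% and 2.70%, in both genotypes.

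The balance of the cycle was close between genotypes. The S phase list summed to 3837 CPM in control 1, 3731 in control 2, 3375 in mutant 1 and 3717 in mutant 2, and the G2/M list to 12125 CPM, 11469, 12275 and 11475. The log2 ratio of G2/M to S phase transcripts was 1.66, 1.62, 1.86 and 1.63, with mutant 1 highest and the other 3 libraries within a narrow range.

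UMIs were summed over the members of each library to test each gene between genotypes with edgeR's quasi-likelihood test. Of 13152 genes, 0 (0%) passed an adjusted p of 0.05, 13 had an unadjusted p under 0.05, and DESeq2 gave the same 0 and 13. Chd8 (chr14:52198151-52257780, minus strand) stood at 53.4 CPM in control 1, 82.1 in control 2, 62.1 in mutant 1 and 82.6 in mutant 2, a log2 change of 0.09 (SE 0.35). The genotypes overlapped. A 3′ tag lies outside the floxed exons, so this level does not check whether recombination took place. Fabp7 and Hopx, markers that the rule did not use, also did not pass the test, with log2 changes of -0.07 and 0.29. Gja1 is a gene of the rule that chose the members, so its log2 change of 0.17 is a description. In simulated counts this fit recovered 0% of genes changed 4-fold, so a count of 0 says little at this spread.

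With the replicate number as a block, which also separates the Cell Ranger versions, 6 of 13152 genes (0.0456%) passed, all of them lower in mutants. DESeq2 with the same block called 0, with 56 at an unadjusted p under 0.05 against 538 in edgeR. The 6 genes were Hist1h1b, Hist1h1a, Thrsp, Tesc, Hydin and Ccdc153. Without the block none of them passed, although the log2 changes were similar in size.

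Hydin and Ccdc153 measured the Foxj1-positive members. Hydin (chr8:110266977-110610253, plus strand) stood at 59.8 CPM in control 1, 34.6 in control 2, 29.1 in mutant 1 and 13.7 in mutant 2, a log2 change of -1.16 (SE 0.204, adjusted p = 0.0222, edgeR with the block). Ccdc153 (chr9:44240676-44247306, plus strand), a coiled-coil protein of cilia, stood at 68.8 CPM, 34.2, 29.1 and 17.6, a log2 change of -1.09 (SE 0.197, adjusted p = 0.0288, edgeR with the block). Both mutant libraries were below both controls for each gene. Of all member UMIs, 569 of 580 of Hydin (98.1%) and 623 of 630 of Ccdc153 (98.9%) lay in the 89 Foxj1-positive members. Within these cells Hydin stood at 482 CPM, 308, 271 and 132 and Ccdc153 at 558 CPM, 305, 277 and 175. The mutants were thus the lower ones within the Foxj1-positive cells too, which are 16 to 32 cells a library. In resting astroglia Hydin stood at 78.1 CPM, 95.5, 66.6 and 57.4, again with both mutants below both controls. Ccdc153 stood there at 151 CPM, 239, 133 and 192, with mutant 2 above control 1. The ependymal list as a whole summed to 659 CPM over all members of control 1, 315 in control 2, 436 in mutant 1 and 299 in mutant 2, with mutant 1 above control 2, and its part in these calls was measured only by leaving the cells out.

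Tesc and Thrsp had part of their counts in the Eomes-positive members. Tesc (chr5:118027743-118061878, plus strand), a calcium-binding protein, stood at 31.9 CPM in control 1, 23.2 in control 2, 12.7 in mutant 1 and 7.93 in mutant 2, a log2 change of -1.39 (SE 0.244, adjusted p = 0.0222, edgeR with the block), and 53.6% of its UMIs came from those 22 cells. Thrsp (chr7:97412938-97417730, minus strand), a nuclear protein linked to lipid synthesis, stood at 61.7 CPM, 63.4, 25.5 and 31.9, a log2 change of -1.11 (SE 0.187, adjusted p = 0.0213, edgeR with the block), and 19.2% of its UMIs came from them. Without the 22 cells Tesc stood at 14.99 CPM, 9.56, 8.70 and 4.07 and Thrsp at 51.1 CPM, 46.7, 24.9 and 31.9. For each gene both mutants stayed below both controls.

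**Figure D3:**
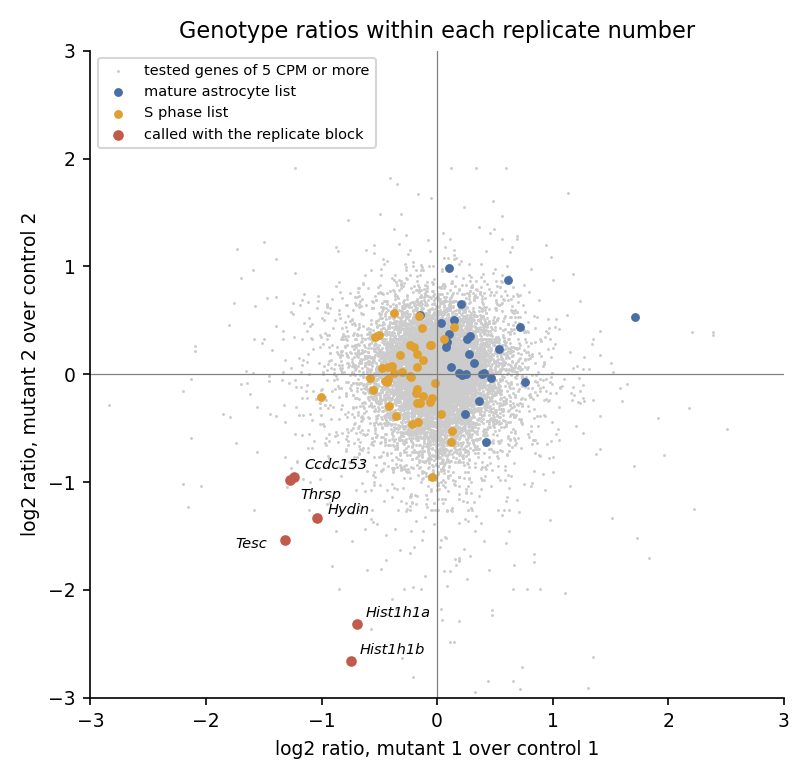
Each point is 1 of 11401 tested genes of at least 5 CPM, placed by its log2 ratio of mutant 1 over control 1 (x axis) and of mutant 2 over control 2 (y axis), and 4 genes lie outside the axes at 3 on either side. The 6 genes that edgeR called with the replicate block (red) lie in the lower left part. Of mature astrocyte genes (blue) 20 of 27 lie in the upper right, and 21 of 44 S phase genes (orange) lie in the lower left. Of all 13152 genes tested, 24% were higher and 24.2% lower in both replicates.

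The other 2 genes encode linker histones, which bind the DNA between nucleosomes. Hist1h1b (chr13:21779883-21780625, minus strand) stood at 562 CPM in control 1, 1016 in control 2, 336 in mutant 1 and 161 in mutant 2, a log2 change of -1.69 (SE 0.279, adjusted p = 0.0213, edgeR with the block). Hist1h1a stood at 30.03 CPM, 86.9, 18.5 and 17.4, a log2 change of -1.59 (SE 0.266, adjusted p = 0.0213, edgeR with the block). The mutants were lower in both replicates but to unequal degrees, with log2 ratios of -0.74 and -2.65 for Hist1h1b within replicates 1 and 2. A Hist1h1b UMI was found in 76.7% of members of control 1, 72.1% of control 2, 63.4% of mutant 1 and 47.7% of mutant 2, and the median member held 4, 3, 2 and 0 UMIs.

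The promoters of the 5 clustered H1 genes are shown because 2 of them were called and the other 3 had the same highest and lowest library. Each sequence is the 150 bases up to the start in GRCm38.p6, with AAACACA, known as the H1 box, and CCAAT or its reverse complement in capitals. They lie at chr13:23763518-23763667 (plus strand), chr13:21780626-21780775 (minus strand), chr13:23738657-23738806 (plus strand), chr13:23554882-23555031 (plus strand) and chr13:23622559-23622708 (minus strand).
Hist1h1a: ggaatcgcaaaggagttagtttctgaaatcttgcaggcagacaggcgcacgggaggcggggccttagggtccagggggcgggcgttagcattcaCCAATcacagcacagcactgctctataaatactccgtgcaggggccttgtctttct
Hist1h1b: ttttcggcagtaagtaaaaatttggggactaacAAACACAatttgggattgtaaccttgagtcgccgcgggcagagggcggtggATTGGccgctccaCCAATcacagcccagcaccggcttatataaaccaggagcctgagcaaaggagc
Hist1h1c: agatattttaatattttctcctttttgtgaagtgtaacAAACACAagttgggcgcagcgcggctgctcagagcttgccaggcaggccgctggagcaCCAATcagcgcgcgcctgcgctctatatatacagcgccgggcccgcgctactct
Hist1h1d: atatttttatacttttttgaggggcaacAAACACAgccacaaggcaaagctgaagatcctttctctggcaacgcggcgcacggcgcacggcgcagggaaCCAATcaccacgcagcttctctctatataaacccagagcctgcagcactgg
Hist1h1e: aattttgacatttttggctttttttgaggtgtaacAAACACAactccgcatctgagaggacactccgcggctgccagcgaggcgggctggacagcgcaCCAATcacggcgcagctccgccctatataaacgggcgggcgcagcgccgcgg
AAACACA was found in 4 of the 5 and in 8.22% of all promoters, 112 to 122 bases before the start, and CCAAT in all 5, 51 to 56 bases before it. In Hist1h1a the letters of the H1 box were not found in the window.

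The other H1 genes followed the same order of libraries. Hist1h1c stood at 141 CPM in control 1, 242 in control 2, 115 in mutant 1 and 60.8 in mutant 2, and Hist1h1e at 683 CPM, 1033, 508 and 222. Hist1h1d stood at 102 CPM, 141, 78.2 and 33.3. Control 2 was the highest and mutant 2 the lowest library for each. This order was not particular to dividing astrocyte progenitors. In dividing OPCs Hist1h1b stood at 369 CPM in control 1, 1023 in control 2, 478 in mutant 1 and 159 in mutant 2, so that mutant 1 exceeded control 1 there, and in dividing inhibitory progenitors at 902 CPM, 3188, 710.0 and 638. In resting astroglia it stood at 22.7 CPM, 28.7, 16.1 and 7.18. Of 51 clustered histone genes tested, 21 were lower in mutants within both replicates and 1 was higher, against 24.2% and 24% of all 13152 genes. Within replicate 1 alone 25 were lower, with a median log2 ratio of 0.01. Within replicate 2 alone 46 were lower, with a median of -1.60. Replication-dependent histone transcripts mostly end without a poly(A) tail, whereas the assay primes on poly(A), so these counts come from a minor part of them.

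**Figure D4:**
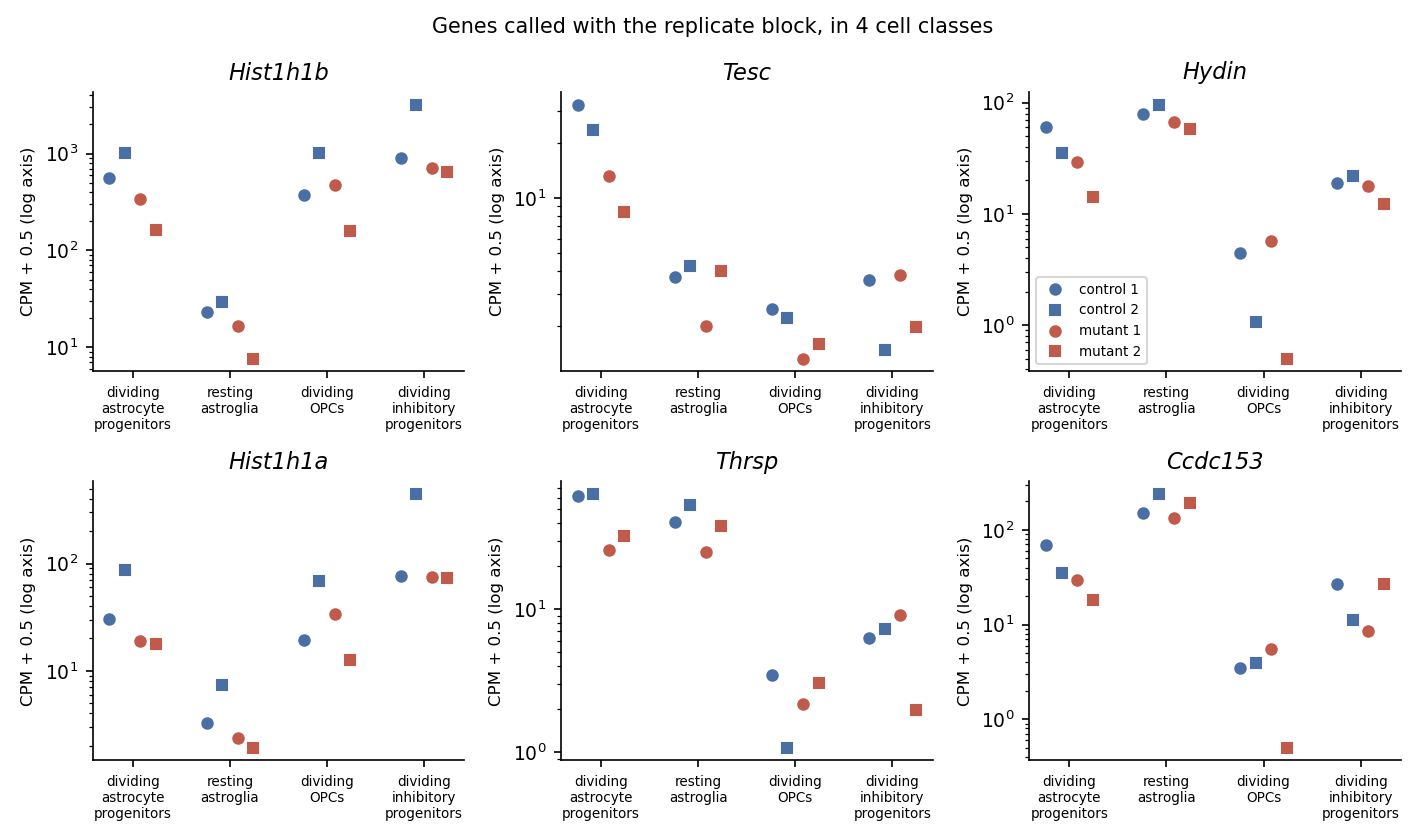
CPM plus 0.5 on a log axis of the 6 genes called with the replicate block, in dividing astrocyte progenitors, resting astroglia, dividing OPCs and dividing inhibitory progenitors, controls in blue, mutants in red, circles for replicate 1 and squares for replicate 2. Control 2 is the highest and mutant 2 the lowest library for Hist1h1a and Hist1h1b in all 4 classes, whereas Hydin and Ccdc153 are at or below 5.24 CPM in dividing OPCs.

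The size of the change turned on single libraries for some of the 6 genes. In fits without the block that left out 1 library, in which none of the 6 passed, the log2 change of Hist1h1a was -0.69 without control 2 and -2.28 without control 1, and that of Hist1h1b ran from -1.14 without control 2 to -2.28 without mutant 1. Hydin had -0.70 without mutant 2, -0.73 without control 1 and -1.73 without mutant 1, and Ccdc153 had -0.58 without control 1 and -1.51 without control 2. Thrsp ran from -0.94 to -1.30 and Tesc from -1.10 to -1.72.

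The 6 calls also depended on the cells included. Without the Foxj1-positive and Eomes-positive members, edgeR with the block called 0 of 12306 genes, with 498 at an unadjusted p under 0.05. Hist1h1b then had a log2 change of -1.71 (adjusted p = 0.130, edgeR) and Hist1h1a -1.61 (adjusted p = 0.130, edgeR), close to their former size. Thrsp had -0.73 (adjusted p = 0.660, edgeR) and Tesc -1.06 (adjusted p = 0.956, edgeR), and Hydin and Ccdc153 no longer had enough counts to be tested. Without the 232 members that carried transcripts of another type, edgeR with the block called 14 of 11739 genes, all lower. Among them were Hist1h1a, Hist1h1b, Hist1h1c, Hist1h1d and Hist1h1e, in a fit that was also added after seeing the data.

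Beyond the called genes, most mature astrocyte genes were higher in each mutant library than in the control of the same number. Of 27 tested, 20 were higher in both replicates and none was lower in both, against 24% of all 13152 genes higher and 24.2% lower in both, and the median log2 change was 0.23 against 0.00 over all genes. S100b stood at 8.51 CPM in control 1, 17.7 in control 2, 28.2 in mutant 1 and 25.6 in mutant 2, a log2 change of 1.01 (SE 0.263, adjusted p = 0.378, edgeR with the block). Agt, which encodes angiotensinogen, stood at 19.9 CPM, 26.2, 30.6 and 48.0, a log2 change of 0.75 (adjusted p = 0.444, edgeR with the block). Slc7a10 stood at 54.5 CPM, 43.5, 89.7 and 59.1 (adjusted p = 0.647, edgeR with the block), and Gfap, at 61.9 CPM, 74.1, 66.7 and 147, was apart only in mutant 2 (adjusted p = 0.773, edgeR with the block). For S100b, Agt and Slc7a10 both mutants were above both controls, and none of the 27 passed the test. Apoe stood higher in each mutant than in the control of the same number, but mutant 1 at 6082 CPM lay below control 2 at 6315 CPM. The summed list stood at 14733 CPM, 17885, 17800 and 20206 in members. In resting astroglia it stood at 30172 CPM, 32322, 31076 and 35188. In both classes each mutant was above the control of the same number, with mutant 1 below control 2. By the fitted change over all 4 libraries 24 of 27 genes were higher. Without control 1 this was 17 of 28, with a median of 0.061, and without mutant 2 it was 18 of 27, with a median of 0.10, while without control 2 the median was 0.46.

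S phase genes went the other way. Of 44, 21 were lower in mutants within both replicates and 2 higher, with a median log2 change of -0.15. Of all 13152 genes, 24.2% were lower and 24% higher in both. Mcm3 and Mcm4, subunits of the replicative helicase, stood at 89.8 CPM, 115, 66.7 and 109 and at 78.7 CPM, 88.3, 70.0 and 64.8, whereas Rrm2 was higher, with log2 ratios of 0.15 and 0.44 within replicates. By the fitted change 33 of the 44 were lower. Without mutant 1 this was 24, with a median of -0.045, without control 1 it was 28, with a median of -0.071, and without mutant 2 it was 37, with a median of -0.25. G2/M genes were higher in both in 13 of 51, close to the share of all genes, and lower in 5, with a median of 0.00. Of 13 gliogenic transcription factors 9 were higher in both and none lower, with a median of 0.10. Without control 2 or without mutant 1 the fitted change was higher in only 6 of the 13 and the median was -0.068 and -0.066. Of 19 progenitor genes 5 were higher and 4 lower, both close to the shares of all genes. Their median was 0.077, and -0.095 without mutant 1. No gene of these 4 lists passed the test, with or without the block.

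By the size of the smaller within-replicate ratio, Gpr37l1, an astrocyte receptor for prosaposin, led the genes of at least 50 CPM that were higher in mutants. It stood at 58.2 CPM in control 1, 54.1 in control 2, 95.7 in mutant 1 and 90.1 in mutant 2, a log2 change of 0.72 (SE 0.166, adjusted p = 0.160, edgeR with the block). Both mutants were above both controls. Dmwd, Etv4, Slc7a10, Mpv17l2, Ramp2, Chst2, Mpped2, Unc5c and Fbln1 followed, and Etv4, a transcription factor induced by fibroblast growth factor signals, stood at 54.2 CPM, 71.8, 73.9 and 100.04. On the lower side Spag16 and Chchd10 came before and after Hist1h1b, and 97.2% and 70.5% of their UMIs lay in the Foxj1-positive members. Pgrmc2, Nufip2, Hist1h2bc, Sgcd, Map1b and Hist1h2ab were also among the lower genes. Of the 3992 genes of at least 50 CPM, 45.8% had the same sign in both replicates.

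Whether the genotype difference was itself different between dividing and resting astroglia was tested as an interaction with a term for each library. Of 15240 genes, 0 (0%) passed an adjusted p of 0.05 with edgeR, 323 had an unadjusted p under 0.05, and DESeq2 gave 0 and 58. Without control 2 the count was 37 and without control 1 it was 8, so the count turned on single control libraries.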

How the data were processed

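Cells sorted for tdTomato at postnatal day 5 were profiled with 10x Genomics 3′ v3.1 chemistry in 2 control and 2 mutant libraries, grouped by the labels. The authors mapped reads to mm10 with Cell Ranger (7.0.0 or 5.0.1 per the file headers) and deposited matrices of unnormalized UMI counts. Members and gene lists were chosen with earlier results of these data known.

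Counts were read with scanpy 1.11.5 and summed per library and class. CPM are UMIs per 1000000 of those sums. Class ratios added 0.5 counts and carry no test. After filterByExpr and TMM scaling, genotype was tested with edgeR 4.0.16 in R 4.3.3, with Benjamini-Hochberg adjustment over all genes tested. Same-numbered libraries deviated together (Pearson correlation 0.846) and share a software version, from which the pairing comes, and the replicate block is given where it changes a result. Shares were compared by exact permutation over 6 assignments.

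Named genes were those of the rule and its markers, Chd8, examples of fixed lists, up to 10 called genes, and the 15 (classes, from 100 CPM) or 10 (genotype, from 50 CPM) most extreme in each direction by the smallest ratio. Genes that mark subsets, and other examples, were picked once their values were known. Some genes that the rule names are not reported here. Positions came from GENCODE vM21 and promoters from RefSeq (GRCm38.p6). Motif counts for S phase and mature astrocyte promoters were void because under 80% of genes matched. Doublets were kept in the main analysis. On simulated 2-fold changes the genotype fit recovered 0% of genes without and 58.5% with the block, and the interaction fit 39.6%. Alternatives were DESeq2 1.42.0, other scalings and filters, left-out libraries, a 5% mitochondrial limit, other cuts on Mki67 and Top2a, thinning, and leaving out mixed or marked cells. Fits without the Foxj1-positive and Eomes-positive cells were added after seeing the data. So were the block fits with DESeq2, without mixed cells, with the 5% mitochondrial limit and with the higher cut on Mki67 and Top2a.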

Additional observations from a re-analysis of the deposited data

How the results depend on the processing

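The number of genes called between genotypes was 0 under every setting without the replicate block, also when any 1 library was left out. With the replicate block it was 6, with the block and the mixed cells left out 14, with the block and a 5% mitochondrial limit 39, and with the block and at least 6 UMIs of Mki67 and Top2a 6. With the block it was 0 in DESeq2 and 0 in edgeR without the Foxj1-positive and Eomes-positive members. All of these block fits but the first were added after seeing the data. The interaction count was 42 with no filter on low counts, 5 against resting cells with at most 5 cycle UMIs, 3 with a 5% mitochondrial limit, and 0 to 37 without 1 library, where leaving out control 2 gave 37, control 1 gave 8, mutant 2 gave 1 and mutant 1 gave 0. Without any replicate block it stayed at 0. The cause of these shifts was not tested.

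Without 1 library, differences in share ranged from -5.25 to 1.88 percentage points of kept cells and from -9.20 to 4.59 of astroglia. Under every other setting both were negative. The exact permutation p within the replicate block was 0.5, the smallest that this test can give, so it cannot decide on a difference. The differences turned without control 2 (1.88 and 4.59) and without mutant 1 (0.344 and 2.39). The log2 ratio of G2/M to S phase transcripts differed by -0.01 to 0.22, and that of mature to progenitor transcripts by 0.00 to 0.44, without 1 library. The log2 change of Chd8 ranged from -0.21 to 0.48 without 1 library, turned without control 1 (-0.21) and without mutant 2 (-0.16), and was -0.031 at a 5% mitochondrial limit and -0.0020 with that limit and the block. That of Hopx ranged from -0.10 (without control 2) to 0.85, and that of Fabp7 turned to 0.054 at the 5% limit and 0.055 with the block as well. No call of Chd8, Hopx or Fabp7 changed under the block. For Gja1, a gene of the rule and so a description, the change ranged from -0.066 (without control 1) to 0.46. It was also negative without mutant 2 (-0.031).

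With 2 pooled libraries a genotype every test is limited, and the depth, the software and the presence of Xist, which all follow the replicate number, cannot be told apart from one another. The Foxj1-positive and Eomes-positive members are few, so levels within them rest on 4 to 32 cells a library.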

Other observations

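Some barcodes met the gene clauses of the rule but failed the filters on cells, 16 in control 1, 42 in control 2, 20 in mutant 1 and 24 in mutant 2. The mitochondrial limit alone removed 1, 29, 1 and 15 of them, and the limit of 40000 UMIs removed 15, 12, 19 and 7. The members' median share of mitochondrial UMIs was 2.48%, 5.37%, 2.84% and 4.51% in the same order, higher in both replicate 2 libraries.

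Patterning genes of the forebrain were measured in the members. Lhx2, a LIM homeodomain factor of dorsal progenitors, stood at 286 CPM in control 1, 151 in control 2, 321 in mutant 1 and 182 in mutant 2, and was above its resting level in every library by 0.24 to 0.47 on the log2 scale. Emx2, a dorsal homeodomain factor, stood at 65.9 CPM, 51.6, 71.2 and 50.2, and Nkx2-1, a ventral one, at 0.532 CPM, 4.39, 0 and 2.20. Olig2, a factor of ventral progenitors and of the glial lineages, stood at 75.5 CPM, 115, 76.1 and 136, against 50.2 to 105 CPM in resting astroglia, and at least 2 of its UMIs were found in 338 members (40.5%). Of 6 dorsal patterning genes 2 were higher and 0 lower in mutants within both replicates, and of 3 ventral ones tested 0 were higher and 0 lower. Of all 13152 genes, 24% were higher and 24.2% lower in both, and lists this short say little beside that.

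Among the 6 genes of the response to dissociation 2 were higher and 2 lower in mutants within both replicates. Over all 13152 genes these shares were 24% and 24.2%, so counts from 6 genes say little about this response. Fos, an immediate early gene, stood at 693 CPM, 626, 769 and 638, below its resting level of 1152 to 1248 CPM.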
